A study of Homo sapiens with 9 samples.

Results

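The genes described here were the ligands, receptors and co-receptors of the vascular endothelial growth factor (VEGF) family together with ANGPTL4, in 786-O cells depleted of ARNT or of BMAL1. The 9 genes were chosen by name (VEGFA, VEGFB, VEGFC, PGF, ANGPTL4, FLT1, KDR, NRP1 and NRP2), and all 9 were found among the 38021 genes of the count table. 786-O is an established human cell line from a clear cell renal cell carcinoma (ccRCC). It lacks functional VHL, the ubiquitin ligase that marks hypoxia inducible factors for degradation, and so it holds HIF2α (EPAS1) at normal oxygen. All cells carried a lentiviral pLKO.1 short hairpin RNA (shRNA) under puromycin selection, which was a control hairpin in shControl, was directed at ARNT in shARNT and was directed at BMAL1 in shBMAL1. Bulk mRNA was sequenced in 9 libraries, 3 biological replicates per group. No other treatment and no oxygen level was given in the labels, and the labels do not say which BMAL1 hairpin was used. Each knockdown was a single construct in a selected population, so the effect of a hairpin and the effect of losing its target cannot be told apart.

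VEGF ligands are secreted proteins that bind receptor tyrosine kinases on endothelial cells and drive the growth of blood and lymphatic vessels. VEGFA is the main ligand for new blood vessels and a classical target of hypoxia inducible factors, which bind DNA as a HIFα subunit paired with ARNT. VEGFB and PGF bind FLT1 (VEGFR1), VEGFC acts mainly on lymphatic endothelium, KDR (VEGFR2) carries most of the signal of VEGFA, and the neuropilins NRP1 and NRP2 are co-receptors that also bind class 3 semaphorins. ANGPTL4 is a secreted inhibitor of lipoprotein lipase that responds to both hypoxia and PPAR transcription factors. Loss of VHL in ccRCC is known for high VEGFA and a dense vasculature, and BMAL1 is the circadian bHLH-PAS factor that pairs with CLOCK and is related to ARNT.

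Depth was similar across libraries, at 33793045 to 35444735 reads, and 20068 to 20778 genes had at least 1 read. Values are normalised read counts (estimated counts divided by a size factor set over all 9 libraries), and fold changes are log2 values with the standard error (SE) from DESeq2, called at a Benjamini-Hochberg adjusted p under 0.1. ARNT was at 2187, 2551 and 2318 in shControl and 1239, 1238 and 1199 in shARNT (−0.94, SE 0.07, adjusted p 8.83e-35). BMAL1, named ARNTL in the files, was at 752, 797 and 735 in shControl and 346, 292 and 340 in shBMAL1 (−1.23, SE 0.11, adjusted p 2.51e-25). Each hairpin was also followed by a smaller fall of the other factor in RNA. By immunoblot the study instead saw slightly more of each protein when the other was depleted. ARNTL was at 676, 656 and 568 in shARNT (−0.26, SE 0.10, adjusted p 0.0294), and ARNT was at 2072, 1928 and 2043 in shBMAL1 (−0.23, SE 0.08, adjusted p 0.0187), neither overlapping shControl. Single libraries decided both calls, since ARNTL with shARNT had an adjusted p of 0.150 without shControl replicate 2 and 0.220 without shARNT replicate 3, and ARNT with shBMAL1 had 0.162 without shControl replicate 2 and 0.109 without shBMAL1 replicate 2. The part of these shifts of the other factor in the results below was not tested. Mitochondrial genes took 5.46% to 7.14% of the reads in control libraries, 7.59% to 8.74% with shARNT and 8.71% to 9.66% with shBMAL1, and the part of this shift in the results below was not tested. All 10 renal epithelial carcinoma markers had a mean of at least 10 reads, and the list summed to 6109 to 6173 CPM (counts scaled to a fixed library total) in control libraries, 6424 to 6562 with shARNT and 6617 to 6848 with shBMAL1, without overlap. Its members moved both ways, with the cadherin CDH6 higher by 1.01 (adjusted p 5.68e-78) and 1.72 (adjusted p 7.88e-170) and the renal lineage factor PAX8 at 0.01 with shARNT (adjusted p 0.946) and lower with shBMAL1 (−0.49, adjusted p 1.71e-11). Of 12 endothelial markers, CDH5 and EMCN were listed at 0 in every library and the whole list summed to 5.37 to 6.89 CPM in control libraries, 6.86 to 8.20 with shARNT and 2.68 to 3.26 with shBMAL1. Of 6 fibroblast or pericyte markers COL1A2 was listed at 0, and the list summed to 9.28 to 9.91 CPM in control libraries, 7.83 to 9.29 with shARNT and 12.0 to 13.9 with shBMAL1. Of 6 leukocyte markers CD3E, LYZ and MS4A1 were listed at 0, and the list summed to 202 to 223, 195 to 213 and 158 to 193 CPM in the same order. Nearly all of the leukocyte sum was CD68, a lysosomal protein, at a mean of 7395 normalised counts in shControl. The part of these marker shifts in the results was not tested.

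The promoter windows show the letters that hypoxia inducible factors and BMAL1 are known to read. They were searched for the hypoxia response element cores ACGTG and GCGTG on both strands and for the E-box CACGTG, which holds ACGTG within it. RefSeq promoter sequences on GRCh38.p14 were matched for 7 of the 9 genes by symbol. VEGFA and NRP1 had no entry. The 250 bases before the transcription start are printed for the 3 ligands with an entry that were called changed in either knockdown, on the strand of the gene, with the motif letters in capitals. The ANGPTL4 window is chr19:8363905-8364154 (plus strand), the VEGFB window is chr11:64234334-64234583 (plus strand) and the VEGFC window is chr4:176792923-176793172 (minus strand).
ANGPTL4: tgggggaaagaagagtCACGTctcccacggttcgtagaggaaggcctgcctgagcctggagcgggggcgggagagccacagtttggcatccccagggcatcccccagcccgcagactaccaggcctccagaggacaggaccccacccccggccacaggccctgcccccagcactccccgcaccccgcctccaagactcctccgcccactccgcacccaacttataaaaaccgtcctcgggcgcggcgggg
VEGFB: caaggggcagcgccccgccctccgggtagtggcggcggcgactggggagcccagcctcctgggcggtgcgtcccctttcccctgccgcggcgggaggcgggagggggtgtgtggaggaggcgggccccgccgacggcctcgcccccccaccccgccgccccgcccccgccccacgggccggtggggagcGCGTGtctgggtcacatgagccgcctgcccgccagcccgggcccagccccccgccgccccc
VEGFC: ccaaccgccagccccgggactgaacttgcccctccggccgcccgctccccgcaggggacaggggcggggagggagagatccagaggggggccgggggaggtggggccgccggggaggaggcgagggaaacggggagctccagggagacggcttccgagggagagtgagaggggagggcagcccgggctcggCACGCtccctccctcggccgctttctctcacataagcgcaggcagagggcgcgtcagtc
In ANGPTL4 the capitals mark CACGT, which is ACGTG on the other strand, 234 bases before the start. In VEGFB they mark GCGTG at 61 bases and in VEGFC they mark CACGC, which is GCGTG on the other strand, at 59 bases before the start. The windows of PGF (1 of 2 windows) and FLT1 each held 1 GCGTG core, those of KDR and NRP2 held neither core, and no window held CACGTG. Among 35116 RefSeq windows of the same length, 18.5% held ACGTG, 32.2% held GCGTG, 43.2% held at least 1 of the cores and 6.34% held CACGTG. A core within 250 bases was thus common among all promoters, and a match describes letters only.

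Of the 9 genes, 7 were tested, while the receptors FLT1 and KDR had too few reads for a test. The reads behind each gene over all 9 libraries were 169500 for NRP1, 152499 for NRP2, 67617 for VEGFA, 18109 for VEGFB, 17235 for ANGPTL4, 8842 for VEGFC and 626 for PGF. FLT1 was listed at 0 in every library, where up to 3 counts, or 0.0846 to 0.0888 CPM, could go unseen by counting error alone. MIF, a cytokine that most cells express, was also listed at 0 in all 9 libraries, so a 0 in this table need not mean that a gene was not transcribed. KDR had 5 reads in all, 2 in shControl replicate 2, 1 in shARNT replicate 3 and 2 in shBMAL1 replicate 3.

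Levels of different genes were compared per kilobase of exon. Over the union of all annotated exons, the order in shControl was NRP1 at 1377 ± 31.2 normalised counts per kilobase, NRP2 at 1323 ± 41.4, ANGPTL4 at 1205 ± 105, VEGFB at 1027 ± 110, VEGFA at 734 ± 20.9, VEGFC at 480 ± 43.7 and PGF at 14.0 ± 3.36 (SD, n = 3). Libraries of neighbours overlapped from NRP1 down to VEGFB, while each later step exceeded the spread. In shARNT the order was NRP1 (1450 ± 42.1), NRP2 (1097 ± 13.0), VEGFB (867 ± 17.2), ANGPTL4 (548 ± 20), VEGFC (361 ± 5.14), VEGFA (286 ± 20.3) and PGF (9.77 ± 0.614), with no overlap of neighbours. In shBMAL1 it was NRP1 (2045 ± 25.7), NRP2 (1218 ± 52.5), VEGFB (1154 ± 34.2), ANGPTL4 (562 ± 83.5), VEGFA (536 ± 42.1), VEGFC (279 ± 19.7) and PGF (12.0 ± 3.10), where NRP2 overlapped VEGFB and ANGPTL4 overlapped VEGFA. VEGFB was thus above VEGFA on this scale in every group, and ANGPTL4 fell below VEGFB in both knockdowns.

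The place of VEGFA depended on the length used, because its 26 annotated transcripts include long forms. The union of its exons spans 14431 bases and the canonical transcript, a length added after the data were seen, 3609. On canonical lengths VEGFA was at 2937 ± 83.6 in shControl, beside NRP1 at 2814 ± 63.8 and NRP2 at 2767 ± 86.6. It was at 1145 ± 81.2 in shARNT, with NRP1 at 2962 ± 85.9 and NRP2 at 2295 ± 27.3, and at 2144 ± 168 in shBMAL1, with NRP1 at 4178 ± 52.6 and NRP2 at 2548 ± 110. On the longest transcript VEGFA was at 871 in shControl, against 2698 for NRP1 and 2759 for NRP2. The files give 1 value per gene, so splice forms of VEGFA and soluble forms of the receptors could not be separated.

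**Figure D1:**
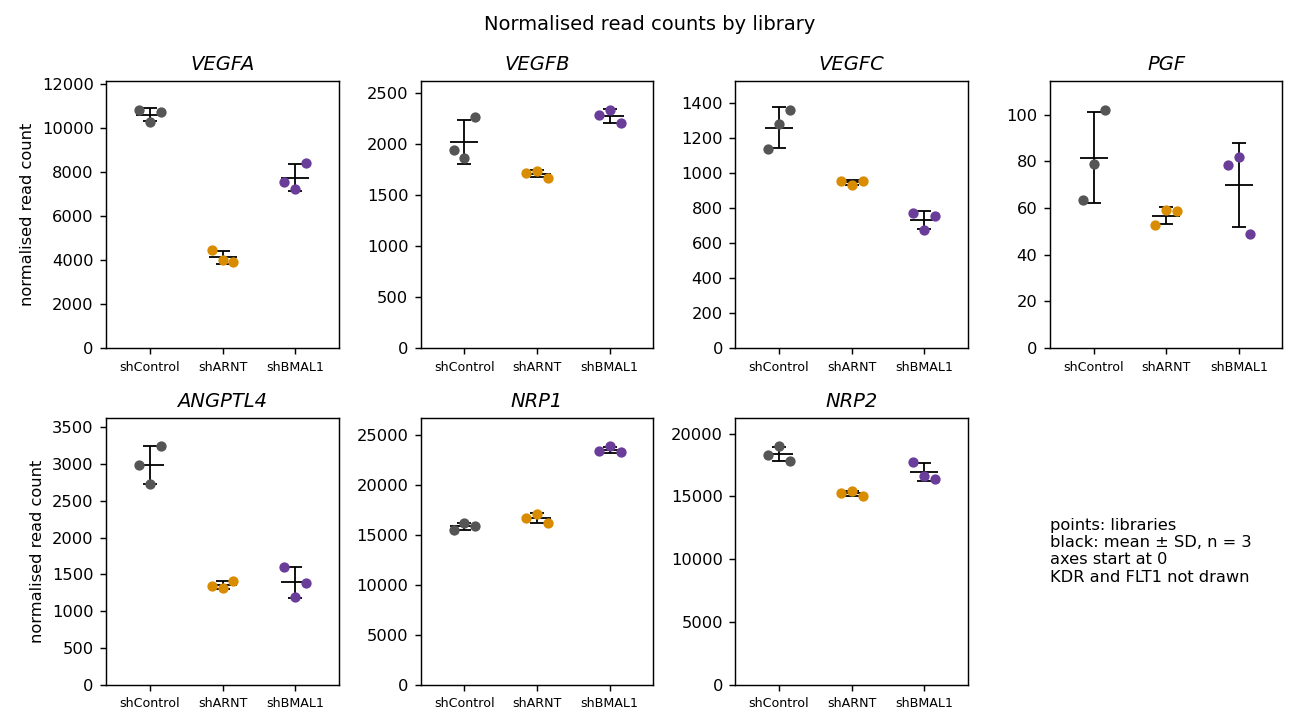
Normalised read counts (vertical axes, each from 0) of the 7 tested genes in the 9 libraries, with points for libraries and black marks for the group mean ± SD (n = 3). VEGFA fell furthest in shARNT (3913 to 4465 against 10255 to 10822 in shControl), ANGPTL4 fell to similar levels in both knockdowns, VEGFC was lowest in shBMAL1 and NRP1 was highest in shBMAL1.

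Libraries with shARNT were set against shControl to ask which of these genes changed with the ARNT hairpin. With shARNT 5 of the 7 tested genes were lower, VEGFA, ANGPTL4, VEGFC, NRP2 and VEGFB, and none was higher. Among all 15164 genes tested 35.4% were called, with 19.0% lower and 16.5% higher. The median log2 fold change of the 7 genes was −0.41, and that of all tested genes was 0.00285.

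VEGFA (chromosome 6, 43737921 to 43754224, plus strand, GRCh37, protein-coding) had 10822, 10255 and 10720 normalised counts in shControl and 4465, 4017 and 3913 in shARNT. The highest shARNT library lay far below the lowest control. The log2 fold change was −1.36 (SE 0.06, 95% interval −1.47 to −1.24, adjusted p 6.81e-115), which left 39.1% of the control level. Only 0.877% of tested genes had a lower fold change. In bulk RNA, fewer cells that express a gene and less RNA per cell cannot be told apart. VEGFA went from above 85.5% of 13721 ranked genes per kilobase of exon in shControl to above 66.8% in shARNT.

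ANGPTL4 (chromosome 19, 8428173 to 8439254, plus strand, protein-coding) had 2989, 2721 and 3239 counts in shControl and 1338, 1317 and 1411 in shARNT. The groups did not overlap, and the shARNT libraries lay close together. It fell by 1.14 on the log2 scale (SE 0.07, 95% interval −1.28 to −0.99, adjusted p 7.93e-50) to 45.5% of control, with 1.37% of tested genes lower.

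The remaining ligands moved less. VEGFC (chromosome 4, 177604689 to 177714076, minus strand) went from 1134, 1280 and 1360 counts to 954, 929 and 950, without overlap (−0.41, SE 0.09, adjusted p 1.53e-05, 75.3% of control). VEGFB (chromosome 11, 64002056 to 64006736, plus strand) went from 1937, 1861 and 2268 to 1718, 1735 and 1670 (−0.24, SE 0.08, adjusted p 0.0105). Its groups did not overlap, but the call rested on 1 control library, and without shControl replicate 3 the fold change was −0.15 (adjusted p 0.144). PGF (chromosome 14, 75408537 to 75422329, minus strand) was low, at 63.4, 79.0 and 102 counts in shControl and 52.6, 58.9 and 58.6 in shARNT. All shARNT libraries of PGF lay below all controls, yet the difference was not called (−0.52, SE 0.27, 95% interval −1.06 to 0.02, adjusted p 0.149), whereas edgeR called it (−0.52, adjusted p 0.0703).

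The co-receptors differed from each other. NRP2 (chromosome 2, 206546714 to 206662857, plus strand) had 18313, 18988 and 17844 counts in shControl and 15305, 15395 and 15046 in shARNT, a fall without overlap to 83.1% of control (−0.27, SE 0.05, adjusted p 9.59e-08). NRP1 (chromosome 10, 33466420 to 33625190, minus strand) had 15504, 16222 and 15884 in shControl and 16760, 17162 and 16197 in shARNT. The groups of NRP1 overlapped and no change was called (0.08, SE 0.05, 95% interval −0.01 to 0.17, adjusted p 0.218). Antisense long noncoding RNAs overlap 4.87% of the annotated exon bases of NRP1, 1.3% of those of VEGFA and 1.06% of those of NRP2. The libraries were stranded but whether counting used the strand was not given, so reads of a gene and its antisense partner cannot be told apart in these overlaps.

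Libraries with shBMAL1 were set against shControl to ask the same of the BMAL1 hairpin. With shBMAL1 ANGPTL4, VEGFC and VEGFA were lower and NRP1 was higher, so 4 of the 7 tested genes were called. Among all 19036 genes tested 36.8% were called, with 19.4% lower and 17.4% higher. The median log2 fold change of the 7 genes was −0.23 and that of all tested genes was 0.015. The 3 shControl libraries served for both knockdowns, so these fold changes and those with shARNT are not independent.

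ANGPTL4 had 1600, 1187 and 1385 counts in shBMAL1, all far below the control range of 2721 to 3239. Its log2 fold change was −1.10 (SE 0.10, 95% interval −1.30 to −0.90, adjusted p 1.61e-25), which left 46.6% of control. The spread was wider than in shARNT, at an SD of 207 counts against 49.6, and 4.02% of tested genes were lower. Such percentages are not comparable between the knockdowns, because the fits tested different genes (15164 with shARNT and 19036 with shBMAL1). The median absolute log2 fold change of all tested genes was 0.181 with shARNT and 0.295 with shBMAL1.

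VEGFC had 769, 672 and 751 counts, below every control and every shARNT library. It fell by 0.78 on the log2 scale (SE 0.10, adjusted p 8.49e-14) to 58.0% of control. VEGFA had 7554, 7243 and 8415 counts, between the other groups and overlapping neither. Its log2 fold change was −0.46 (SE 0.07, 95% interval −0.59 to −0.32, adjusted p 1.17e-09, 72.9% of control), and 14.2% of tested genes were lower.

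NRP1 had 23463, 23901 and 23336 counts in shBMAL1, all above every other library. This was a rise to 148% of control (0.57, SE 0.06, 95% interval 0.46 to 0.68, adjusted p 6.31e-23). NRP1 was the only gene of the 9 with fractional counts in the deposited table, which were rounded. NRP2 had 17762, 16612 and 16410, just below the control range of 17844 to 18988, and was not called (−0.12, SE 0.06, 95% interval −0.24 to −0.0015, adjusted p 0.123), although the fit without shBMAL1 replicate 1 called it (−0.16, adjusted p 0.0209).

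VEGFB and PGF showed no called change with shBMAL1. VEGFB had 2283, 2337 and 2203 counts and overlapped only the highest control library (0.17, SE 0.09, 95% interval 0.00039 to 0.33, adjusted p 0.127). Without that library, shControl replicate 3, VEGFB was called higher (0.26, adjusted p 0.0150). PGF had 78.4, 81.6 and 49.0 counts, a range that enclosed the shARNT libraries and 2 of the 3 controls (−0.23, SE 0.28, 95% interval −0.79 to 0.33, adjusted p 0.612).

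**Figure D2:**
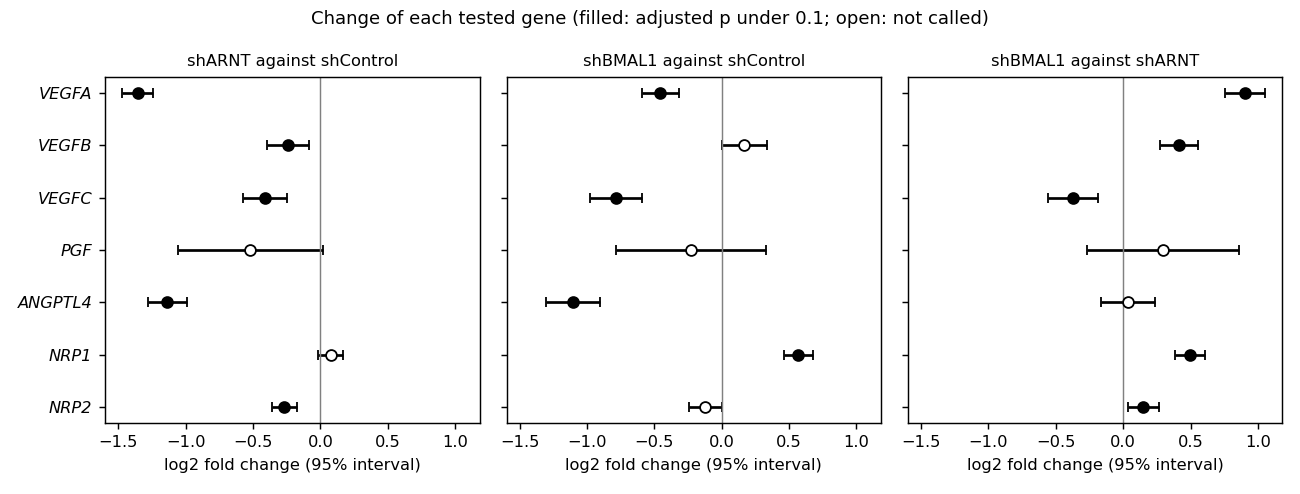
Log2 fold change (horizontal axis) with its 95% interval for each of the 7 tested genes in the 3 comparisons, filled where the adjusted p was under 0.1. VEGFA fell by 1.36 with shARNT and 0.46 with shBMAL1, ANGPTL4 fell by 1.14 and 1.10, and NRP1 rose only with shBMAL1 (0.57).

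The direct comparison of shBMAL1 with shARNT tested whether the knockdowns differ in these genes. VEGFA, VEGFB, NRP1 and NRP2 were higher in shBMAL1 and VEGFC was lower, so 5 of 7 were called, where 35.3% of 18181 tested genes were called, 18.0% lower and 17.3% higher. The median log2 difference of the 7 genes was 0.29, against 0.00944 for all tested genes.

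VEGFA was 187% of its shARNT level in shBMAL1 (0.90, SE 0.08, 95% interval 0.75 to 1.06, adjusted p 1.29e-29). NRP1 differed by 0.50 (SE 0.06, adjusted p 4.33e-17) and VEGFB by 0.41 (SE 0.07, adjusted p 1.35e-07), both higher in shBMAL1 in every library. VEGFC was lower by −0.37 (SE 0.09, adjusted p 0.000545). The difference of NRP2 was small (0.15, SE 0.06, adjusted p 0.0378), and leaving out shARNT replicate 1, 2 or 3 gave adjusted p of 0.113, 0.106 and 0.156.

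ANGPTL4 showed no called difference between the knockdowns (0.04, SE 0.10, adjusted p 0.849), and the 95% interval of −0.16 to 0.24 bounds the difference in either direction. Its shBMAL1 libraries (1187 to 1600) enclosed its shARNT libraries (1317 to 1411). The estimate changed sign without shBMAL1 replicate 1, to −0.075 (adjusted p 0.630). PGF was also not called (0.29, SE 0.29, 95% interval −0.27 to 0.86, adjusted p 0.503).

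The unequal changes altered the make-up of the ligand transcripts. Of the summed level per kilobase of VEGFA, VEGFB, VEGFC and PGF on union exon lengths, VEGFA made up 32.6% ± 1.96 in control cells, 18.8% ± 0.970 with shARNT and 27.0% ± 1.90 with shBMAL1 (SD, n = 3). VEGFB was the largest part in every group, at 45.4% ± 1.80, 56.9% ± 0.855 and 58.3% ± 2.27. VEGFC made up 21.3% ± 1.38, 23.7% ± 0.566 and 14.1% ± 0.869, and PGF lay between 0.422% and 0.724% in every library. The VEGFA share and the VEGFC share did not overlap between any of the groups. The share of VEGFC was highest with shARNT, where its own count was lower than in control, and lowest with shBMAL1.

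On canonical lengths VEGFA was the largest part, at 63.1% ± 2.15, 45.0% ± 1.58 and 56.9% ± 2.41, in the same order of groups. VEGFB made up 24.0% ± 1.50, 37.3% ± 1.09 and 33.5% ± 2.17. Its share was higher in every shARNT library than in any shBMAL1 library on canonical lengths, whereas these libraries overlapped on union lengths. VEGFC made up 11.9% ± 0.927, 16.4% ± 0.556 and 8.58% ± 0.475, in the same order as on union lengths. The summed ligand level per kilobase of union exon was 2255 ± 153 in control cells, 1524 ± 31.5 with shARNT and 1982 ± 20 with shBMAL1, while canonical lengths gave 4660 ± 206, 2541 ± 90.8 and 3767 ± 135. The shares and sums were not tested.

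The balance of the neuropilins moved too. The ratio of NRP1 to NRP2 normalised counts, with no length correction, rose from 0.864 ± 0.0233 in shControl to 1.10 ± 0.0191 with shARNT and to 1.39 ± 0.0638 with shBMAL1 (SD, n = 3), with no overlap between groups. Without a length correction the ratio shows change between groups and not which gene was higher. Per kilobase NRP1 was above NRP2 in both knockdowns on all 3 lengths, whereas in shControl their libraries overlapped on union lengths and the order of the means turned on the longest transcript (2698 for NRP1 and 2759 for NRP2). The ratio rose in shARNT mainly with the fall of NRP2 and in shBMAL1 mainly with the rise of NRP1. The summed count of both was 34252 ± 832, 31955 ± 664 and 40495 ± 740.

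**Figure D3:**
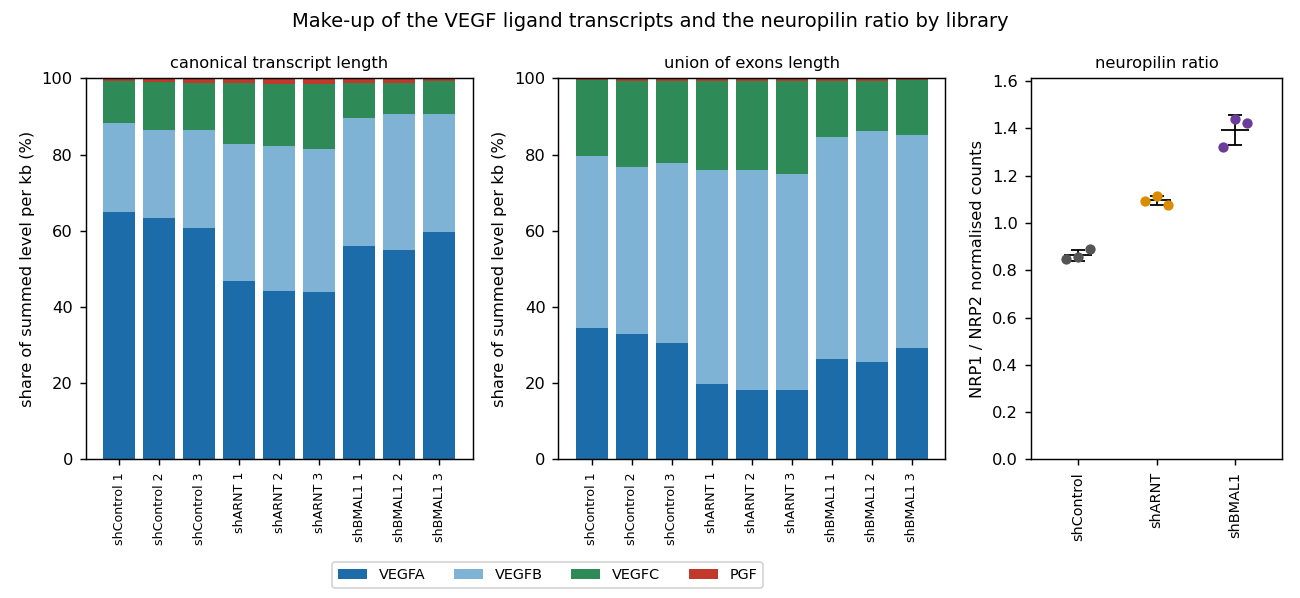
Share (%) of each ligand in the summed level per kilobase of VEGFA, VEGFB, VEGFC and PGF in each library, on canonical transcript and union exon lengths, and the ratio of NRP1 to NRP2 normalised counts with the mean ± SD (n = 3). The VEGFA share was lowest in shARNT on either length (45.0% and 18.8%), VEGFB was the largest part on union lengths and VEGFA on canonical ones, and the neuropilin ratio was highest in shBMAL1 (1.39).

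For VEGFA and ANGPTL4, the genes with the most similar pattern over the 9 libraries were found by Pearson r of log2(normalised count + 1) among 12935 genes with a mean of at least 50 counts. These r values are descriptions over libraries that form 3 groups. For VEGFA they were PDGFB (r = 0.999), MAGED2 (0.996), ZMIZ2 (0.990) and ERO1A (0.986), whose log2 fold changes with shARNT were −1.95, −0.27, −0.71 and −0.66. For ANGPTL4 they were RHBDF2 (r = 0.996), LOC100506411 (0.992), IRF7 (0.989) and SIMC1 (0.988). IRF7, an interferon regulatory factor, had log2 fold changes of −1.65 with shARNT and −1.53 with shBMAL1.

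Genes of the pathways around these members were described by counts over 190 genes in 9 lists, with no test of a list. With shARNT 147 were tested, and 56 were lower and 23 higher, or 53.7% called, where 35.4% of all tested genes were called. With shBMAL1 160 were tested, and 57 were lower and 31 higher, or 55% against 36.8% of all. In the direct comparison 158 were tested, and 46 were lower and 43 higher, or 56.3% against 35.3% of all. The lists hold known hypoxia targets and were chosen with earlier results known, so nothing particular to them is read from these shares.

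Among 8 other VEGF and neuropilin ligands, 2 were lower and 2 higher of 5 tested with shARNT, and 1 was lower and 3 higher of 6 tested with shBMAL1 (median log2 fold changes −0.07 and 0.28). VEGFD, named FIGF in the files, was listed at 0. SEMA3C, a semaphorin that binds both neuropilins, fell from 6530 ± 390 counts in shControl to 3752 ± 77.5 in shARNT (−0.80, adjusted p 8.66e-41) and 3451 ± 36.5 in shBMAL1 (−0.92, adjusted p 2.45e-40). SEMA3A, the classical NRP1 ligand that repels growing axons, rose from 734 ± 78.6 to 1342 ± 42.6 (0.87, adjusted p 5.50e-21) and 1497 ± 13.8 (1.03, adjusted p 6.57e-26). SEMA3E, which acts through PLXND1, also rose, by 1.51 (adjusted p 5.99e-06) and 1.73 (adjusted p 1.29e-07), from a low level of 30.2 ± 6.22. SEMA3B fell with shARNT (−0.45, adjusted p 5.12e-06) and was at −0.16 with shBMAL1 (adjusted p 0.208). SEMA3F, a ligand of NRP2 named after its values were seen, rose with shBMAL1 from 3207 ± 117 to 5274 ± 353 (0.72, adjusted p 1.02e-21) and was at −0.07 with shARNT (adjusted p 0.363), a direct difference of 0.79 (adjusted p 3.66e-28). Secreted semaphorins that share the neuropilins with VEGF thus moved in both directions.

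Among 10 other receptors and co-receptors, FLT4 and CDH5 were listed at 0, and of 8 tested 3 were lower and 2 higher with shARNT and 4 lower and 2 higher with shBMAL1 (medians −0.11 and −0.14). MCAM, an adhesion molecule that can act as a VEGF co-receptor, fell by 0.27 with shARNT (adjusted p 0.00586) and 0.54 with shBMAL1 (adjusted p 3.06e-08). The integrin subunit ITGB3 rose by 0.43 (adjusted p 1.98e-12) and 0.35 (adjusted p 1.82e-05). Of the plexins, PLXNA2 fell in both (−0.69, adjusted p 0.00508, and −0.48, adjusted p 0.0412), PLXNA1 rose with shARNT (0.28, adjusted p 0.000124, against −0.07, adjusted p 0.555, with shBMAL1) and PLXND1 rose with shBMAL1 (0.23, adjusted p 0.0167, against −0.04, adjusted p 0.721, with shARNT). PLXNA3 and PLXNA4 are added after their values were seen. PLXNA3 fell in both (−0.18, adjusted p 0.00668, and −0.21, adjusted p 0.0107), and PLXNA4, with a mean of 35.2 ± 2.85 in shControl, fell with shBMAL1 (−1.74, adjusted p 0.00346).

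Among 47 genes of VEGF receptor signal transduction, 15 of 43 tested were lower and 4 higher with shARNT, and 16 of 44 were lower and 4 higher with shBMAL1 (medians −0.06 and −0.15). Among genes with a mean of at least 50 counts over the 6 libraries compared, the most lowered with shARNT were the adaptor SHB (−0.57, adjusted p 1.75e-17) and the focal adhesion protein PXN (−0.54, adjusted p 6.08e-33). PXN also fell with shBMAL1 (−0.46, adjusted p 1.23e-10), where SHB was at −0.08 (adjusted p 0.521). Within the same limit, the most lowered with shBMAL1 were the sphingosine kinase SPHK1 (−1.02, adjusted p 6.78e-29) and the kinase PRKCD (−0.80, adjusted p 7.15e-28), and both fell with shARNT too (−0.41, adjusted p 2.44e-07, and −0.42, adjusted p 9.51e-12). Below that limit, and named after its values were seen, NFATC2, a calcium-responsive transcription factor, fell further in both (−1.12, adjusted p 0.0108, and −2.25, adjusted p 2.30e-07). The adaptor NCK1 rose in both (0.39, adjusted p 0.000594, and 0.27, adjusted p 0.0479). The adaptor GRB2 rose with shARNT (0.21, adjusted p 0.0700) and was at −0.01 with shBMAL1 (adjusted p 0.954). The kinase FYN rose with shBMAL1 (1.14, adjusted p 7.50e-19) and was at −0.19 with shARNT (adjusted p 0.326).

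Of 24 other secreted angiogenic factors, 8 of 18 tested were lower and 1 higher with shARNT, and 8 of 19 were lower and 5 higher with shBMAL1 (medians −0.26 and −0.04). EDN1, the precursor of the vasoconstrictor endothelin-1, went from 694 ± 66.7 counts to 134 ± 10.1 in shARNT (−2.37, adjusted p 2.51e-68) and 1430 ± 50.1 in shBMAL1 (1.04, adjusted p 1.95e-26), opposite directions that differed by 3.41 in the direct comparison (SE 0.11, adjusted p 5.35e-192). PDGFB, a growth factor for pericytes, went from 562 ± 32.6 to 145 ± 10.5 (−1.95, adjusted p 5.89e-47) and 358 ± 44 (−0.65, adjusted p 1.68e-06). The cytokine IL6 fell in both, by 1.01 with shARNT (adjusted p 1.96e-08) and 1.63 with shBMAL1 (adjusted p 2.55e-17), and was lower in shBMAL1 in the direct comparison (−0.62, adjusted p 0.0182). The thymidine phosphorylase TYMP fell with shBMAL1 (−1.03, adjusted p 1.24e-14) and TGFB1 rose there (0.76, adjusted p 3.61e-18), while neither was called with shARNT (−0.08, adjusted p 0.603, and −0.11, adjusted p 0.197). FGF2 was the 1 factor of the list that rose with shARNT (0.35, adjusted p 0.0136), and it was at −0.02 with shBMAL1 (adjusted p 0.921).

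Of 18 secreted angiogenesis inhibitors, 2 of 9 tested were lower and 3 higher with shARNT, and 3 of 12 were lower and 4 higher with shBMAL1 (medians 0.06 and −0.15). The metalloproteinase inhibitor TIMP2 rose with shARNT (0.36, adjusted p 1.62e-06) and fell with shBMAL1 (−1.28, adjusted p 1.22e-45), a direct difference of −1.64 (adjusted p 9.13e-82). VASH1 rose in both (0.61, adjusted p 0.00501, and 0.60, adjusted p 0.00696). THBS1, the matrix protein thrombospondin-1, rose in both (0.24, adjusted p 0.00172, and 0.54, adjusted p 3.93e-12) and was higher in shBMAL1 in the direct comparison (0.30, adjusted p 0.000651). ISM1 fell with shBMAL1 (−0.60, adjusted p 0.000489) and was at −0.04 with shARNT (adjusted p 0.865). The matrix protein SPARC fell with shARNT (−0.19, adjusted p 0.000436) and rose with shBMAL1 (0.36, adjusted p 4.31e-05), a direct difference of 0.56 (adjusted p 4.38e-11). COL18A1, the source of endostatin, fell with shARNT (−0.13, adjusted p 0.0584) and was at −0.11 with shBMAL1 (adjusted p 0.272).

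Of 13 angiopoietins, TIE receptors and angiopoietin-like genes other than ANGPTL4, 3 were tested with shARNT and 8 with shBMAL1 after independent filtering, whose limit differed between the fits, with 1 and 2 lower and none higher (medians −0.34 and −0.11). The genes called, named after their values were seen, were ANGPTL2 (a mean of 64.6 ± 14.3 in shControl, falling to 34.4 ± 2.34 with shARNT and 5.31 ± 1.20 with shBMAL1) and TIE1, which fell with shBMAL1 from 21.5 ± 5.20 to 6.99 ± 3.67 (−1.62, adjusted p 0.0311). ANGPTL2 changed by −0.91 (adjusted p 0.0192) and −3.61 (adjusted p 7.99e-12).

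Of 19 genes of the lipoprotein lipase axis on which ANGPTL4 acts, 6 of 13 tested were lower and none higher with shARNT, and 5 of 14 were lower and 3 higher with shBMAL1 (medians −0.02 and 0.01). LPL, the enzyme that ANGPTL4 inhibits, was listed at 0 in all libraries. The proprotein convertases, which cleave ANGPTL4, were split. FURIN fell in both (−0.23, adjusted p 0.000820, and −0.74, adjusted p 8.78e-19) and was lower in shBMAL1 in the direct comparison (−0.50, adjusted p 1.63e-08). PCSK6 rose with shBMAL1 from 75.1 ± 7.16 to 234 ± 39.9 counts (1.64, adjusted p 2.48e-14) and was not called with shARNT (0.30, adjusted p 0.388), and PCSK5 fell with shARNT (−0.53, adjusted p 2.46e-11) and was not called with shBMAL1 (0.06, adjusted p 0.668). The lipoprotein receptor VLDLR fell with shARNT (−0.43, adjusted p 1.34e-10) and rose with shBMAL1 (0.24, adjusted p 0.00302), a direct difference of 0.68 (adjusted p 3.11e-22). LMF1, a factor for lipase maturation, rose with shBMAL1 (0.53, adjusted p 3.33e-06) and was at 0.02 with shARNT (adjusted p 0.943).

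Of 22 PPAR factors and PPAR-responsive genes, 4 of 19 tested were lower and 8 higher with shARNT, and 7 of 20 were lower and 5 higher with shBMAL1 (medians 0.16 and −0.09). CPT1A, which brings fatty acids into mitochondria, rose with shARNT (0.55, adjusted p 1.24e-07) and fell with shBMAL1 (−0.83, adjusted p 1.39e-11), a direct difference of −1.38 (adjusted p 8.89e-33). The lipid droplet protein PLIN2 rose with shARNT (0.16, adjusted p 0.0130) and fell with shBMAL1 (−0.75, adjusted p 1.09e-27). PPARD fell with shARNT (−0.44, adjusted p 0.000119) and rose with shBMAL1 (0.75, adjusted p 2.36e-15). The coactivator PPARGC1A rose in both, from 49.2 ± 12.3 to 143 ± 44.6 (1.54, adjusted p 5.50e-07) and 415 ± 26.6 (3.07, adjusted p 1.17e-55). TXNIP, an inhibitor of thioredoxin, fell with shARNT (−0.60, adjusted p 7.97e-11) and rose with shBMAL1 (0.42, adjusted p 2.18e-05), a direct difference of 1.02 (adjusted p 7.14e-29). ANGPTL4, which responds to PPAR factors in other settings, fell to 45.5% and 46.6% of control. The part of PPAR factors in this fall was not tested.

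Of 29 regulators of VEGFA transcription and mRNA stability, all tested, 15 were lower and 3 higher with shARNT and 11 lower and 5 higher with shBMAL1 (medians −0.16 and −0.07). The counts include ARNT and ARNTL themselves. EGLN3, a prolyl hydroxylase that is itself a hypoxia target, moved in opposite directions. From a control mean of 4092 ± 60.7 counts it fell to 1937 ± 19.1 with shARNT (−1.08, adjusted p 1.00e-78) and rose to 6115 ± 465 with shBMAL1 (0.58, adjusted p 1.21e-14), a direct difference of 1.66 (adjusted p 1.89e-111). HIF1A rose in both (0.42, adjusted p 2.00e-11, and 0.61, adjusted p 2.36e-18) and was higher in shBMAL1 in the direct comparison (0.20, adjusted p 0.00570). Other subunits of the same bHLH-PAS family are given after their values were seen. EPAS1, the HIFα subunit that these cells hold, fell with shARNT (−0.23, adjusted p 0.000563), was at −0.06 with shBMAL1 (adjusted p 0.546) and differed directly by 0.18 (adjusted p 0.0395). ARNT2, a paralogue of ARNT, fell in both (−0.59, adjusted p 1.31e-08, and −0.38, adjusted p 0.000951), as did ARNTL2, a paralogue of BMAL1 (−0.26, adjusted p 0.00616, and −0.58, adjusted p 2.83e-09). CLOCK was at −0.11 with shARNT (adjusted p 0.254) and fell with shBMAL1 (−0.43, adjusted p 2.31e-06), a direct difference of −0.31 (adjusted p 0.000358). ZFP36L2, an mRNA decay factor, rose with shARNT (0.38, adjusted p 0.0333) and was at −0.01 with shBMAL1 (adjusted p 0.967). With shBMAL1 the early response factor EGR1 rose from 230 ± 6.97 to 1121 ± 145 counts (2.28, adjusted p 7.14e-76) and TFAP2A rose (0.82, adjusted p 2.09e-08), while neither was called with shARNT (0.16, adjusted p 0.477, and −0.08, adjusted p 0.766). ETS1 fell in both (−0.36, adjusted p 9.58e-07, and −0.74, adjusted p 3.36e-18).

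**Figure D4:**
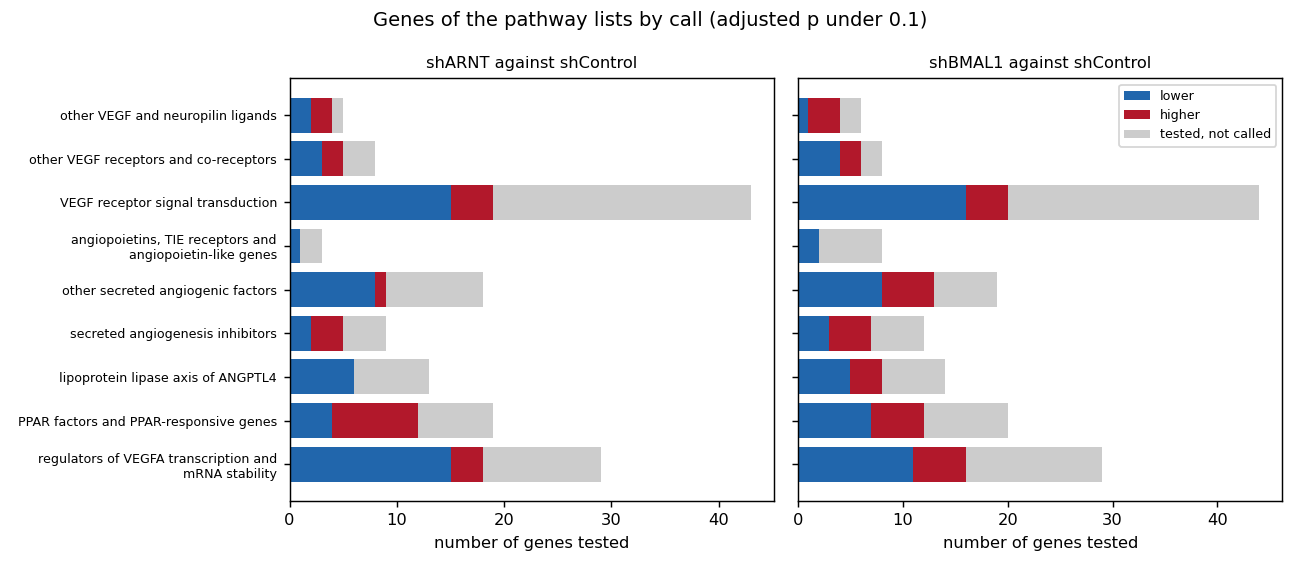
Number of genes tested (horizontal axis) in each of the 9 pathway lists, divided into those called lower, called higher and not called at an adjusted p under 0.1, for shARNT and shBMAL1 against shControl. Regulators of VEGFA split into 15 lower and 3 higher with shARNT and 11 and 5 with shBMAL1, and the other secreted factors into 8 and 1 and into 8 and 5.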

How the data were processed

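Stranded mRNA libraries of 9 samples in 3 groups were compared, with groups and replicate numbers taken from the sample labels. The authors deposited 1 table of estimated counts per gene on a linear scale, not normalised. The study's methods name SeqMan NGen and ArrayStar with GRCh37, whereas the submitters' processing notes name STAR and hg38. The annotation and strand setting were not given in the sources used here. The value 0.009 stood for 0 and filled 46.3% of cells. Fractional estimates, 6.14% of nonzero cells, were rounded. The 53 rows that repeated a gene name were added together (38074 rows, 38021 genes), except 28 rows with symbols turned into dates, which were kept apart.

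Each comparison was fitted in DESeq2 1.42.0 (R 4.3.3) on the 6 libraries of its groups, over all genes, with median-of-ratios size factors, Benjamini-Hochberg adjusted p from the two-sided Wald test, and independent filtering at 0.1. The script was tested on simulated counts. Alternatives were edgeR 4.0.16, TMM size factors, at least 10 counts in 3 libraries, an adjusted p under 0.05, a fit of all 9 libraries, a replicate block, correction for GC content (loess span 0.3, genes covering 98.3% of reads) and each library left out. Libraries of the same group differed by a chi-square per degree of freedom of 7.60 to 17.6 and those of different groups by 48.1 to 101, so none was a copy. Nothing in the labels says that replicates were separate cultures beyond the word biological, and p-values measure the spread between these libraries. Intervals and limits of detection cover counting error or that spread only.

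Exon lengths and coordinates came from GENCODE v44 lifted to GRCh37, and canonical transcript length was added after the data were seen. The genes described and the lists were chosen with earlier results of these data known. Named list genes were the 2 most lowered and 2 most raised by log2 fold change among those called with a mean of at least 50 counts, per list and knockdown, and the 4 most similar genes were named for VEGFA and ANGPTL4. Some genes that this rule names are not reported here. Gene-level fold changes of the pathway genes were read from the same fits.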

Additional observations from a re-analysis of the deposited data

How the results depend on the processing

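For the 7 tested genes in 3 comparisons, 21 fold changes were recomputed under 13 alternatives each. Of these 273 values, 260 kept their direction and their side of the threshold, and 15 of the 21 results did so under all 13. VEGFA, VEGFC and NRP1 stayed on the same side of the threshold under all 13 alternatives in all 3 comparisons, as did ANGPTL4 in both knockdowns against control. VEGFA with shARNT ranged from −1.42 to −1.30. The estimate for ANGPTL4 between the knockdowns, never called, reversed to −0.075 without shBMAL1 replicate 1 and ranged up to 0.14. VEGFB with shBMAL1 was called higher by edgeR (0.17, adjusted p 0.0819), with the count filter (0.17, adjusted p 0.0959), in the fit of all 9 libraries (0.17, adjusted p 0.0796) and after GC correction (0.23, adjusted p 0.0119). NRP2 with shBMAL1 was called in the fit of all 9 libraries (−0.12, adjusted p 0.0689). The causes were not tested. The replicate block kept 5, 4 and 5 called genes in the 3 comparisons and lowered the number of all genes called with shARNT from 5374 to 4150. Deviations of same-numbered libraries from their group means correlated between −0.15 and 0.11, so no pairing by number was seen. These few values cannot exclude that same-numbered libraries were handled together. Levels per kilobase in shControl with the longest transcript were 871 for VEGFA, 556 for VEGFC, 23.0 for PGF, 1594 for ANGPTL4, 2698 for NRP1 and 2759 for NRP2, all above those over union exons. Counts were low for PGF, at 49.0 to 102 per library, and the 5 reads of KDR gave no adjusted p.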
